A study of Mus musculus with 15 samples.

Results

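The genes described here encode the epidermal growth factor (EGF) family signal of mouse ovarian granulosa cells: the ligands Areg, Ereg, Btc, Hbegf, Tgfa and Nrg1, the receptors Egfr, Erbb2 and Erbb3, and the EGFR inhibitor Errfi1. They were taken by gene symbol, and all 10 were found among the 24490 genes of the count files and all 10 passed the expression filter. Granulosa cells, the somatic cells that surround the oocyte, were primary cultures from RjOrl:SWISS females aged 8 weeks, grown in 6-well plates and transfected with 30 pmol of siRNA. The 15 libraries form 5 groups of 3: Foxl2 siRNA at 30 h, Esr2 siRNA at 30 h, scrambled siRNA at 30 h, Foxl2 siRNA at 54 h and scrambled siRNA at 54 h. Foxl2 encodes a forkhead transcription factor that maintains granulosa identity, and Esr2 encodes oestrogen receptor beta. Every group received siRNA with the same lipid reagent, and no untransfected cells were among the groups. For either target the labels name 4 pools, each made of 3 siRNAs, but they give both targets identical catalogue numbers and tie no pool to a library. The times are those of the sample titles; the extract protocol names 30 h only. Nothing in the labels says that libraries of 1 group are separate cultures or animals, and the p-values measure only their spread, which can be technical.

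EGF-like ligands are made as membrane-bound precursors, released by metalloproteases such as ADAM17 and ADAM10, and bind receptors of the ErbB family, which then pair and signal through RAS and ERK. In the preovulatory follicle the surge of luteinising hormone induces Areg, Ereg and Btc in mural granulosa cells, and their products act on EGFR in granulosa and cumulus cells to relay the signal toward cumulus expansion and resumption of oocyte meiosis. ERBB2 has no known ligand and serves as a partner for the others, ERBB3 has a weak kinase and binds neuregulins, and ERRFI1 (MIG6) is a feedback inhibitor of EGFR.

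Levels are given as counts-per-million (CPM) of gene counts scaled by the trimmed-mean method (TMM), in replicate order. Libraries held from 45.0 to 59.6 M gene counts, and 3 counts, the limit that a count of 0 allows, were worth 0.0504 to 0.0667 CPM. Foxl2 itself stood at 25.2 to 65.4 CPM in the 6 Foxl2 siRNA libraries, against 143 to 189 CPM in the 6 scrambled libraries. The most Foxl2 remained in replicate 3 at 30 h and replicate 2 at 54 h. Esr2 stood at 12.9 to 14.5 CPM after Esr2 siRNA, against 60.4 to 61.6 CPM with scrambled siRNA at 30 h. Foxl2 was at 112 to 128 CPM after Esr2 siRNA, below every scrambled library, but was not called (edgeR, adjusted p = 0.539). A fit of only those 2 groups called it (edgeR, adjusted p = 0.0348), as did limma's voom (adjusted p = 0.0404). After Foxl2 siRNA at 30 h Esr2 was at 25.0 to 45.5 CPM, below every scrambled library but not called (edgeR, adjusted p = 0.109). The 2-group fit (edgeR, adjusted p = 0.0436), DESeq2 (0.0484) and voom (0.000145) called it. Esr2 was also at 15.7 to 49.3 CPM after Foxl2 siRNA at 54 h, against 64.9 to 74.2 CPM in scrambled cells, a fall with an edgeR adjusted p of 0.00854; in a fit of only those 2 groups the adjusted p was 0.0652. Of 12 granulosa markers, Inha was at 1411 to 2407 CPM over all libraries, while the gonadotropin receptor Fshr stayed between 0.215 and 0.948 CPM and aromatase, Cyp19a1, between 0.0385 and 3.89 CPM. The theca markers Cyp17a1 and Insl3 were at or under 0.265 CPM in every library, and 4 of 5 erythroid markers, the globin genes Hba-a1, Hba-a2, Hbb-bs and Hbb-bt, were at 0 in all 15. The remaining erythroid marker, the heme synthesis gene Alas2, was higher after Foxl2 siRNA, at 0.437 ± 0.11 CPM against 0.142 ± 0.0316 CPM with scrambled siRNA at 30 h and at 1.313 ± 0.636 CPM against 0.261 ± 0.0792 CPM with scrambled siRNA at 54 h (mean ± SD, n = 3; edgeR, adjusted p = 0.0174 and 0.000227).

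After Foxl2 siRNA the ligand Btc and the receptor Egfr were lower at both times and the ligands Ereg and Tgfa at 54 h, while the neuregulin Nrg1 was higher at both times and Erbb3 higher at 54 h. After Esr2 siRNA the ligand Areg was higher and Tgfa lower. Hbegf, Erbb2 and Errfi1 passed the test in no comparison of an siRNA with its scrambled control. In these bulk cultures fewer cells of a type and less RNA per cell cannot be told apart. The plot of levels by library shows all 10 genes.

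**Figure D1:**
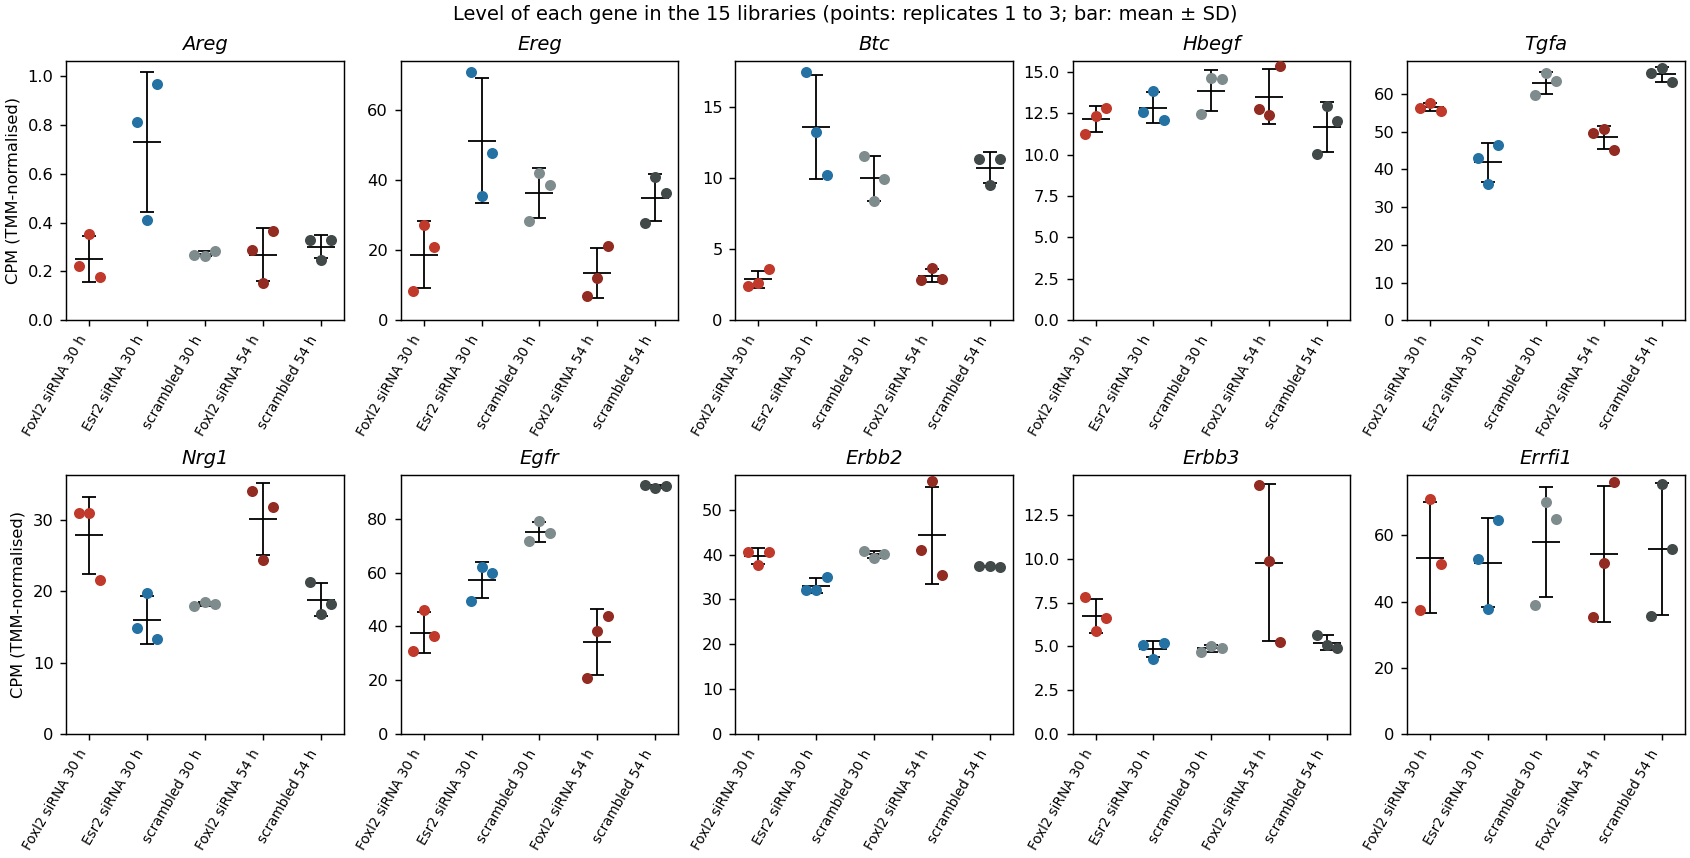
TMM-normalised CPM of each gene in every library (y axes, linear, starting at 0) for the 5 groups (x axes); points are replicates 1 to 3 and bars the mean ± SD. Btc and Egfr lie lower in all 6 Foxl2 siRNA libraries than in any scrambled library of the same time, and Areg lies highest in the Esr2 siRNA libraries.

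In scrambled cells at 30 h, set per kilobase of merged exon so that genes can be compared, the mean levels ran from Errfi1 with 17.9 CPM per kb through Tgfa with 13.9, Ereg with 8.78, Erbb2 with 7.99, Egfr with 6.86, Hbegf with 5.84, Btc with 3.48, Nrg1 with 2.31 and Erbb3 with 0.812 to Areg with 0.224 CPM per kb. Neighbours in this order were separate in all 3 libraries except that Errfi1 overlapped Tgfa and Ereg overlapped both Erbb2 and Egfr. In these cells Tgfa was therefore the most abundant EGFR ligand transcript, and Areg was the least abundant of the 10 genes. In Esr2 siRNA cells the mean of Ereg was above that of Tgfa, with 12.4 CPM per kb for Ereg and 9.245 for Tgfa, but the libraries of the 2 genes overlapped. In Foxl2 siRNA cells at 54 h the mean was 3.25 CPM per kb for Ereg and 3.13 for Egfr, both then below Hbegf with 5.69 CPM per kb, while Nrg1 with 3.81 CPM per kb overlapped both.

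Btc encodes betacellulin, a ligand of EGFR and ERBB4. It stood at 2.44, 2.65 and 3.58 CPM in Foxl2 siRNA cells at 30 h, against 11.6, 8.42 and 9.96 CPM in scrambled cells. At 54 h the values were 2.86, 3.66 and 2.93 CPM after Foxl2 siRNA, against 11.4, 9.503 and 11.4 CPM with scrambled siRNA. Every Foxl2 siRNA library was below every scrambled library at both times, and the 6 Foxl2 siRNA values spanned a narrow range. The log2 change was -1.79 ± 0.21 (SE) at 30 h and -1.77 ± 0.21 at 54 h, which is 3.41-fold lower at the later time (edgeR quasi-likelihood test with Benjamini-Hochberg adjustment over the 14907 tested genes, adjusted p = 0.000231 and 4.05e-05). The change at 54 h minus the change at 30 h was 0.02 ± 0.29 on the log2 scale (edgeR, adjusted p = 0.994). After Esr2 siRNA, Btc was at 17.5, 13.2 and 10.2 CPM, a range that overlapped the scrambled libraries at its lower end, and the change of 0.45 ± 0.20 did not pass the test (edgeR, adjusted p = 0.257).

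Ereg encodes epiregulin, an EGFR and ERBB4 ligand induced before ovulation. Its values were 8.25, 27.1 and 20.7 CPM after Foxl2 siRNA at 30 h, against 28.3, 42.01 and 38.4 CPM with scrambled siRNA. They were 7.04, 12.01 and 21.2 CPM after Foxl2 siRNA at 54 h, against 27.7, 40.9 and 36.2 CPM with scrambled siRNA. The groups did not overlap at either time, and replicate 1 was the lowest Foxl2 siRNA library at each. The log2 change was -0.95 ± 0.42 at 30 h, which did not pass the test, and -1.38 ± 0.43 at 54 h, 2.597-fold lower, which did (edgeR, adjusted p = 0.162 and 0.0222). At 30 h limma's voom with quality weights gave a change of -1.70 and called it (adjusted p = 0.00451). The 54 h call was lost without scrambled replicate 2 or 3 or without Foxl2 siRNA replicate 1 or 2 at that time (edgeR, adjusted p 0.0513 to 0.085). In Esr2 siRNA cells Ereg was at 70.6, 35.4 and 47.5 CPM, the highest single value of the series among them, and its change of 0.50 ± 0.42 against scrambled cells was not called (edgeR, adjusted p = 0.611).

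Areg encodes amphiregulin, an EGFR ligand that is another mediator of the luteinising hormone signal. It was rare in all groups, with 9 to 56 counts per library. Esr2 siRNA libraries had 0.812, 0.411 and 0.9702 CPM, against 0.268, 0.265 and 0.285 CPM in scrambled libraries at 30 h. All 3 Esr2 siRNA values were above all 3 scrambled values, with replicate 2 the nearest to them. Summed over the groups this is 126 counts after Esr2 siRNA and 43 with scrambled siRNA. Set against the TMM-scaled library sizes, the ratio is 2.72, with an exact 95% interval of 1.91 to 3.95 that covers counting error only. The log2 change was 1.42 ± 0.36, 2.68-fold higher (edgeR, adjusted p = 0.0451). This call rests on a small margin: the adjusted p lay between 0.137 and 0.182 when any 1 scrambled library at 30 h or Esr2 siRNA replicate 1 or 3 was left out, and was 0.0565 without the expression filter and 0.057 in a fit of the 2 groups alone. Foxl2 siRNA libraries had 0.222, 0.356 and 0.177 CPM at 30 h and 0.286, 0.152 and 0.366 CPM at 54 h, with 0.3296, 0.247 and 0.329 CPM in scrambled libraries at 54 h. These ranges overlapped the scrambled ranges at both times, and neither change passed the test (edgeR, adjusted p = 0.884 and 0.735).

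Tgfa (chr6:86195223-86275719, plus strand, build mm10 as all positions here) encodes transforming growth factor alpha, an EGFR ligand. It was at 42.9, 36.2 and 46.4 CPM after Esr2 siRNA, against 59.8, 65.5 and 63.3 CPM with scrambled siRNA at 30 h. The groups were far apart, and the log2 change was -0.59 ± 0.08, 1.502-fold lower (edgeR, adjusted p = 0.000863). Foxl2 siRNA gave 49.6, 50.8 and 45.04 CPM at 54 h, against 65.6, 66.9 and 63.0 CPM with scrambled siRNA. These groups did not overlap either, and the log2 change was -0.43 ± 0.08 (edgeR, adjusted p = 0.00102). At 30 h Foxl2 siRNA libraries had 56.4, 57.5 and 55.6 CPM, all below the scrambled libraries, but the change of -0.15 ± 0.08 did not pass the test (edgeR, adjusted p = 0.222). Tgfa was the only one of the 10 genes called lower in a comparison with each siRNA; the 30 h comparisons of Esr2 siRNA and Foxl2 siRNA share their scrambled libraries.

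Hbegf encodes heparin-binding EGF-like growth factor. It varied little, at 11.3, 12.4 and 12.8 CPM with Foxl2 siRNA, 12.6, 13.9 and 12.1 CPM with Esr2 siRNA and 12.4, 14.6 and 14.6 CPM with scrambled siRNA at 30 h. At 54 h it was at 12.8, 12.4 and 15.4 CPM with Foxl2 siRNA and 10.0, 12.97 and 12.01 CPM with scrambled siRNA. All these groups overlapped those they were compared with, and the log2 changes were -0.19 ± 0.12 after Foxl2 siRNA at 30 h, 0.21 ± 0.12 at 54 h and -0.11 ± 0.12 after Esr2 siRNA (edgeR, adjusted p = 0.303, 0.167 and 0.703).

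Nrg1 (chr8:31814551-32884029, minus strand) encodes neuregulin 1, a ligand of ERBB3 and ERBB4. Foxl2 siRNA libraries had 30.9, 31.0 and 21.6 CPM at 30 h, against 17.96, 18.5 and 18.2 CPM in scrambled libraries. At 54 h they had 34.01, 24.4 and 31.8 CPM, against 21.3, 16.8 and 18.2 CPM in scrambled libraries. Each Foxl2 siRNA library was above each scrambled library of its time, and the libraries with the most remaining Foxl2, replicate 3 at 30 h and replicate 2 at 54 h, had the least Nrg1 of their groups. The same libraries had the most Btc of their groups. Egfr and Ereg did not follow this order. Among Foxl2 siRNA libraries both were highest where the least Foxl2 remained, in replicate 2 at 30 h and replicate 3 at 54 h. A relation to the remaining Foxl2 was not tested. The log2 change was 0.61 ± 0.17 at 30 h, 1.53-fold higher, and 0.68 ± 0.17 at 54 h, 1.598-fold higher (edgeR, adjusted p = 0.0345 and 0.00741). The 54 h call held without any 1 library, whereas the 30 h call was lost without any 1 scrambled library or without Foxl2 siRNA replicate 1 or 2 (edgeR, adjusted p 0.084 to 0.127). After Esr2 siRNA, Nrg1 was at 14.8, 19.7 and 13.4 CPM, overlapping the scrambled range, with a change of -0.19 ± 0.17 (edgeR, adjusted p = 0.648).

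Egfr (chr11:16752203-16918158, plus strand) encodes the receptor of AREG, EREG, BTC, HBEGF and TGFA. It was at 30.8, 45.9 and 36.5 CPM in Foxl2 siRNA cells at 30 h, against 71.6, 79.04 and 74.8 CPM in scrambled cells. At 54 h Foxl2 siRNA cells had 20.7, 38.2 and 43.9 CPM, against 92.5, 91.5 and 92.01 CPM in scrambled cells. The groups were separated by wide gaps at both times, and replicate 1 was the lowest Foxl2 siRNA library at each. The log2 change was -0.99 ± 0.21 at 30 h and -1.42 ± 0.21 at 54 h, or 1.99-fold and 2.68-fold lower (edgeR, adjusted p = 0.00896 and 0.000253). Esr2 siRNA cells had 49.4, 61.9 and 59.9 CPM, all 3 values below the scrambled range, but the change of -0.40 ± 0.21 was not called (edgeR, adjusted p = 0.362). It was called in a fit of only those 2 groups (edgeR, adjusted p = 0.042) and by limma's voom with quality weights (adjusted p = 0.0139). In scrambled cells Egfr was higher at 54 h than at 30 h in every library, by 0.29 ± 0.21 on the log2 scale, which did not pass the test (edgeR, adjusted p = 1, unadjusted p = 0.185). A fit of only the scrambled groups called it (edgeR, change 0.29, adjusted p = 0.0286), as did voom (adjusted p = 0.0392).

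Erbb2 (chr11:98412470-98437716, plus strand) encodes the shared partner receptor and lies across Mien1 on the opposite strand, so reads of both may not be told apart, since the strand setting of the counting is not given in the sources used here. Its levels were 40.6, 37.7 and 40.6 CPM with Foxl2 siRNA, 32.1, 32.1 and 34.9 CPM with Esr2 siRNA and 40.8, 39.2 and 40.1 CPM with scrambled siRNA at 30 h. Esr2 siRNA libraries lay below all scrambled libraries, with a log2 change of -0.28 ± 0.12, without passing the test (edgeR, adjusted p = 0.257); the fit of those 2 groups alone called it (adjusted p = 0.025). At 54 h Erbb2 was at 40.96, 56.4 and 35.5 CPM with Foxl2 siRNA and 37.3, 37.5 and 37.3 CPM with scrambled siRNA. Replicate 3 of the Foxl2 siRNA group fell below the scrambled libraries and the other two above them, and without that replicate the change, 0.25 ± 0.12 with all libraries (edgeR, adjusted p = 0.129), became 0.38 and was called (adjusted p = 0.0139).

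Erbb3 (chr10:128567523-128589652, minus strand) encodes the kinase-weak neuregulin receptor and contains the microRNA gene Mir6917 on its own strand. Foxl2 siRNA libraries had 7.79, 5.87 and 6.61 CPM at 30 h, against 4.68, 5.05 and 4.93 CPM in scrambled libraries. They had 14.2, 9.86 and 5.26 CPM at 54 h, against 5.68, 5.08 and 4.91 CPM in scrambled libraries. At 30 h the groups did not overlap, and at 54 h replicate 1 was high, replicate 2 intermediate and replicate 3 within the scrambled range. The log2 change was 0.47 ± 0.26 at 30 h, which was not called, and 0.90 ± 0.26 at 54 h, which was (edgeR, adjusted p = 0.256 and 0.0135). The 54 h call rests on Foxl2 siRNA replicate 1: without it the change was 0.53 (edgeR, adjusted p = 0.079), and without replicate 3 it was 1.20. It also missed the threshold without scrambled replicate 3 (edgeR, adjusted p = 0.0501) and in a fit of the 2 groups alone (adjusted p = 0.0853). Esr2 siRNA libraries had 5.08, 4.302 and 5.18 CPM, which overlapped the scrambled range, with a change of -0.01 ± 0.26 (edgeR, adjusted p = 0.993).

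Errfi1 (chr4:150853919-150868892, plus strand) encodes the EGFR inhibitor MIG6 and overlaps the antisense gene 1700045H11Rik. It varied widely inside every group: 37.6, 70.9 and 51.3 CPM with Foxl2 siRNA, 52.9, 37.7 and 64.7 CPM with Esr2 siRNA and 39.02, 69.98 and 64.8 CPM with scrambled siRNA at 30 h. At 54 h it was at 35.4, 51.5 and 75.97 CPM with Foxl2 siRNA and 35.8, 75.5 and 55.9 CPM with scrambled siRNA. The groups overlapped almost fully, and no change passed the test, with log2 changes of -0.12 ± 0.34 after Foxl2 siRNA at 30 h, -0.04 ± 0.34 at 54 h and -0.16 ± 0.34 after Esr2 siRNA (edgeR, adjusted p = 0.857, 0.943 and 0.883). Errfi1 had the same order of its 3 libraries in all 5 groups as the summed level of 7 theca and stroma markers, which was led by Col1a1. That sum was 189, 627 and 391.7 CPM with Foxl2 siRNA, 296, 130.2 and 476 CPM with Esr2 siRNA and 149.9, 499.6 and 365.5 CPM with scrambled siRNA at 30 h, and 273, 616 and 793.5 CPM with Foxl2 siRNA and 192, 625 and 417 CPM with scrambled siRNA at 54 h. Ereg followed that order in 4 of the 5 groups, all but Esr2 siRNA, and Egfr in 3. The sums of 5 endothelial markers and of 6 smooth muscle and pericyte markers also had the order of Errfi1 in all 5 groups. These orders were noticed after the values were seen, and the part of other cell types in the levels was not tested.

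Counted together, 1 of the 10 genes was called higher and 2 lower after Foxl2 siRNA at 30 h, where 6.34% of all tested genes were called higher and 6.65% lower, or 13% in either direction. At 54 h Foxl2 siRNA gave 2 genes higher and 4 lower, with 18.5% of tested genes higher and 20.3% lower, or 38.8% in all. After Esr2 siRNA 1 gene was higher and 1 lower, with 1.13% of tested genes higher and 3.11% lower, or 4.23% in all. The median log2 change of the 10 genes was -0.138, -0.112 and -0.137 in these comparisons, beside -0.00884, -0.0114 and -0.00532 over all tested genes. The 3, 6 and 2 genes called are larger shares of 10 than the background shares, but such small counts were not tested as a list. The 10 genes were also chosen with earlier results of these data known, so no conclusion about the family is drawn from these shares. The plot of changes sets the 3 comparisons side by side.

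**Figure D2:**
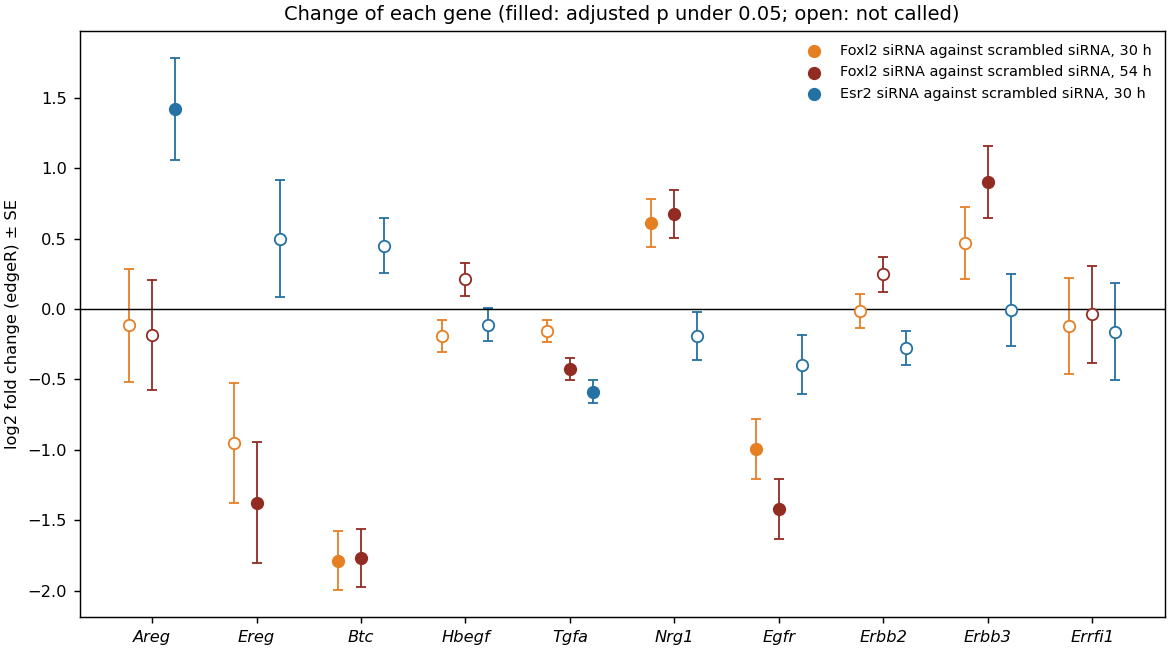
Log2 fold change (y axis) of each gene (x axis) after Foxl2 siRNA at 30 h and 54 h and after Esr2 siRNA at 30 h, each against scrambled siRNA of the same time; bars are ± SE and filled points passed an edgeR adjusted p of 0.05. Btc and Egfr lie below 0 and Nrg1 above 0 at both times of Foxl2 siRNA, and the point of Areg is filled and above 0 for Esr2 siRNA.

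The siRNAs were also compared directly at 30 h; the scrambled libraries give no level to this comparison but share in its estimate of the spread. Foxl2 siRNA cells had less of 3 ligands than Esr2 siRNA cells, with log2 differences of -2.24 ± 0.21 for Btc, -1.54 ± 0.37 for Areg and -1.45 ± 0.43 for Ereg (edgeR, adjusted p = 1.98e-05, 0.0108 and 0.0298). They had more Tgfa, by 0.43 ± 0.08, and more Nrg1, by 0.80 ± 0.17 (edgeR, adjusted p = 0.00211 and 0.00573). No Foxl2 siRNA library overlapped an Esr2 siRNA library in these 5 genes. The same was true of Egfr, Erbb2 and Erbb3, which were not called, so separation did not mark out the called genes. The share of all tested genes without overlap was not computed. Background calls in this comparison were 11.1% of tested genes higher and 9.34% lower, or 20.4% in all. The Btc, Tgfa and Nrg1 calls held without any 1 library. The Areg call was lost without Esr2 siRNA replicate 3 (edgeR, adjusted p = 0.0514), and the Ereg call without Esr2 siRNA replicate 1 or 3 or Foxl2 siRNA replicate 1 (adjusted p 0.0569 to 0.126). Both calls were also lost in a fit of the 2 siRNA groups alone, where the adjusted p was 0.0585 for Areg and 0.0747 for Ereg. The Egfr difference of -0.60 ± 0.21 missed the threshold (edgeR, adjusted p = 0.0632), as did those of Hbegf, Erbb2, Erbb3 and Errfi1 (adjusted p 0.146 to 0.949). Egfr was called with library size alone as the scaling or without Foxl2 siRNA replicate 2 (edgeR, adjusted p = 0.0462 for each), with a replicate block (adjusted p = 0.0308), by DESeq2 (adjusted p = 0.0272) and by voom (adjusted p = 0.00934), and Erbb2 by voom (adjusted p = 0.0156).

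Time in culture was examined in the scrambled cells. In the edgeR fit of all libraries none of the 10 genes was called between 54 h and 30 h, where 1 of 14907 tested genes, or 0.00671%, was called and 727 had an unadjusted p under 0.05. Deviations of same-number replicates correlated by 0.632, 0.49 and 0.143 for numbers 1 to 3 in these groups, and unlike numbers reached 0.336. With a replicate block 3 genes were called, again none of the 10. A fit of the scrambled libraries alone called 206 genes, among them Egfr. None was called either when the later Foxl2 siRNA change was set against the earlier one, where again 1 gene, or 0.00671%, was called and 1510 had an unadjusted p under 0.05. The largest such differences among the members were -0.43 ± 0.30 for Egfr, 0.44 ± 0.36 for Erbb3, -0.42 ± 0.60 for Ereg and 0.40 ± 0.16 for Hbegf on the log2 scale (edgeR, adjusted p = 0.695, 0.76, 0.893 and 0.431). A gene called at 54 h and not at 30 h, such as Ereg, Tgfa or Erbb3, was thus not shown to change more at the later time. DESeq2 and limma's voom with quality weights called 63 and 2693 genes between the scrambled times and 199 and 1056 genes for the difference of changes; of the 10 genes voom called Hbegf and Egfr in the first and Hbegf in the second, and DESeq2 none.

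Areg, Ereg and Btc lie together with Epgn, the gene of the EGFR ligand epigen, on mouse chromosome 5 (build mm10): Ereg at chr5:91074622-91093646 and Areg at chr5:91139599-91148432 on the plus strand, and Btc at chr5:91357261-91402994 on the minus strand. After Foxl2 siRNA Btc was lower and Areg was not called at either time; the difference between these genes was not tested. Epgn was rare, with 0.04399, 0.185 and 0.0578 CPM after Foxl2 siRNA at 54 h and 0.238, 0.266 and 0.208 CPM with scrambled siRNA; the groups did not overlap, the Foxl2 siRNA values rest on 2, 11 and 3 counts, and the change was not called (edgeR, adjusted p = 0.0607). Of the 6 neighbouring genes examined, Mthfd2l, a folate enzyme gene, fell at 54 h by 0.44 on the log2 scale and Rchy1, a ubiquitin ligase gene, rose by 0.44 (edgeR, adjusted p = 0.00266 and 6.11e-05). Cxcl1, Cxcl2, Parm1 and Cdkl2 were not called after Foxl2 siRNA at either time. After Esr2 siRNA, Areg and Rchy1 were called, the second at a log2 change of -0.29 (edgeR, adjusted p = 0.00916).

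**Figure D3:**
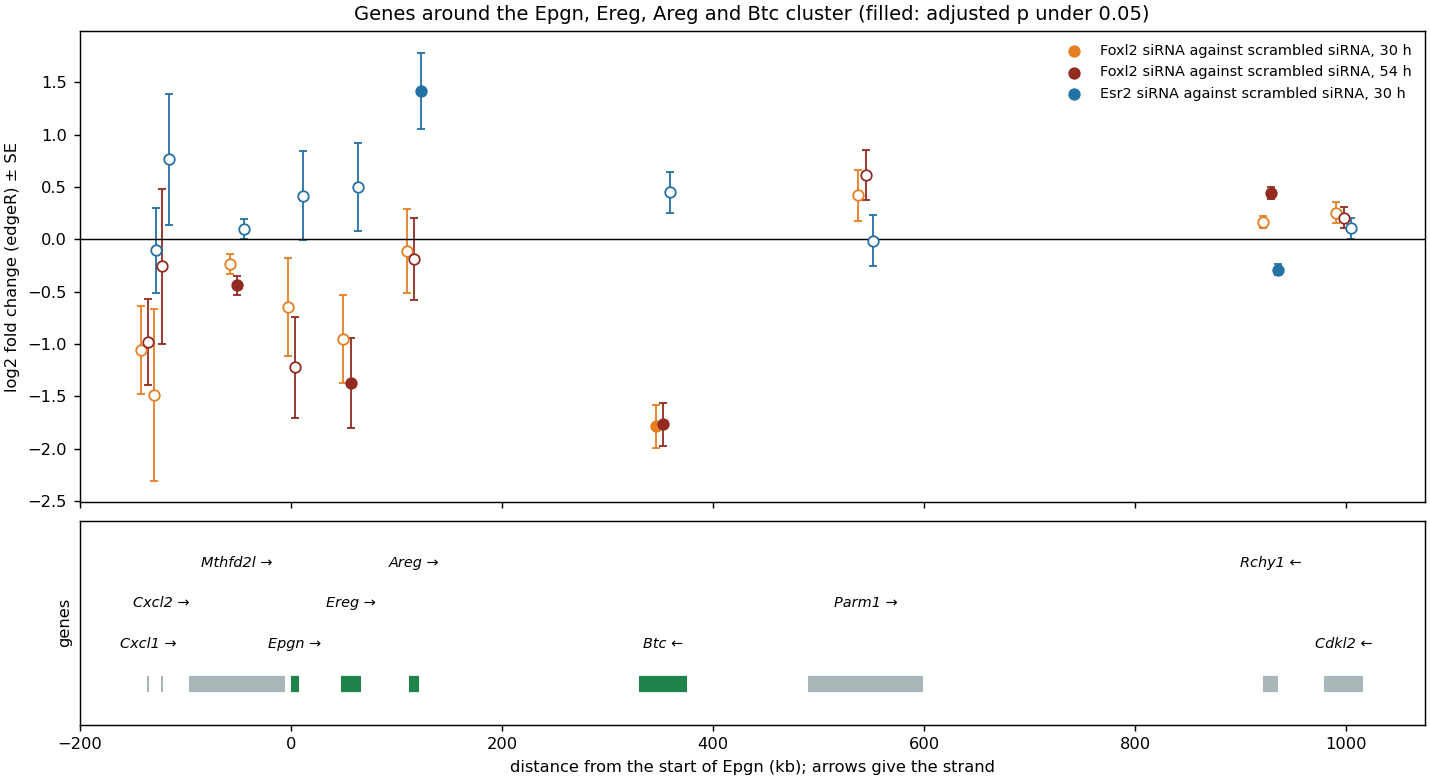
Top, log2 fold change ± SE (y axis) of 10 genes of the chromosome region against distance in kb from the start of Epgn (x axis), with points of a gene set side by side for the 3 comparisons with scrambled siRNA and filled where the edgeR adjusted p was under 0.05; bottom, the extent of each gene, with the 4 EGF-like ligand genes in green. Btc is the lowest filled gene after Foxl2 siRNA at both times, and Areg is filled after Esr2 siRNA and open in both Foxl2 siRNA comparisons.

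The 250 bases before the transcription start are shown for the 4 called members that have an entry in the RefSeq promoter table (build GRCm38.p6), so that the starts of Areg and Btc, which lie in 1 cluster and were called after different siRNAs, can be read beside Tgfa and Egfr. Capitals mark a TATA box (TATAAA) and the core of the cyclic AMP response element (TGACG, or CGTCA on the other strand); a forkhead motif (TGTTTAC, both strands) would also be in capitals and was not found in any.
Areg (chr5:91139349-91139598, plus strand): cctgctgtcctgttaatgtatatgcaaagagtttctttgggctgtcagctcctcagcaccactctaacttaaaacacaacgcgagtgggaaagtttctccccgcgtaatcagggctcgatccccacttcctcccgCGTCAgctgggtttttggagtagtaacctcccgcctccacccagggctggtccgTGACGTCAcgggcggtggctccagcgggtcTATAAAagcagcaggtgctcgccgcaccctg
Btc (chr5:91402995-91403244, minus strand): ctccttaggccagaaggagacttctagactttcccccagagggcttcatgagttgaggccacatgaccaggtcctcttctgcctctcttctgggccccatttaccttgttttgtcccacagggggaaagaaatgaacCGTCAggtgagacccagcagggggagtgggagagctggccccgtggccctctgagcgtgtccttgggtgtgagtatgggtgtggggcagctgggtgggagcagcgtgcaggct
Tgfa (chr6:86194972-86195221, plus strand): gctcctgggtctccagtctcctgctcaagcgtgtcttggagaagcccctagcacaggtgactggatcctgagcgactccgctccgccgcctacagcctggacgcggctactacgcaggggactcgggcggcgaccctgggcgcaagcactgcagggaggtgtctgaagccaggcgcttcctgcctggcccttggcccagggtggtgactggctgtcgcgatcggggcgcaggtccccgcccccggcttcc
Egfr (chr11:16751953-16752202, plus strand): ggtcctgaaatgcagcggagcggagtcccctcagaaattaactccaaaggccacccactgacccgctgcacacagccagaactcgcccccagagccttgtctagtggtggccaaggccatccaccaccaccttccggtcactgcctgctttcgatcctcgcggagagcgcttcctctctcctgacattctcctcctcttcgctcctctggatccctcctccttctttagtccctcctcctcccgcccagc
The Areg sequence holds the full element TGACGTCA, which contains the core on both strands, 61 bases before the start, a further core 115 bases before it and a TATA box 31 bases before it. Btc has 1 core, 113 bases before the start, and neither of the other motifs. Tgfa and Egfr have none of the 3. The GC box GGGCGG, on 1 strand or the other, lies 126 and 15 bases before the start of Tgfa, 9 bases before that of Egfr and 52 bases before that of Areg, and is not in the Btc sequence. Of the 2 entries of Errfi1, a gene called in no comparison, 1 also holds the full element, 51 bases before its start, a TATA box 28 bases before it and GC boxes 152, 97 and 93 bases before it, and the Erbb2 entry holds 1 core, 171 bases before the start. Among 32851 promoters of the table searched over the same length on both strands, 1.55% held the full element, 17.8% the core, 12.4% TATAAA, 32.7% GGGCGG and 3.17% the forkhead motif. The AP-1 motif (TGANTCA, 6.75% of promoters) and the palindromic oestrogen response element (0.0639%) were not found in the 7 promoters of the 6 members with an entry. A match is a description of these letters and no evidence of binding.

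Genes with the most similar profile over the 15 libraries were sought for Areg, Ereg, Btc and Egfr by the root-mean-square difference of centred log2 CPM, as a description. They were picked for likeness in these same libraries, so a shared order of groups or replicates is no separate result. The medians given below lie near the SD of the member itself, 0.999 for Btc, 0.644 for Egfr, 0.933 for Ereg and 0.644 for Areg. Btc was nearest to the amino acid transporter gene Slc16a10 with a difference of 0.254, then to Cftr and Sh3bgrl2, against a median of 0.982 over all tested genes. Slc16a10 was at 7.22, 6.04 and 8.78 CPM with Foxl2 siRNA, 26.6, 29.9 and 26.2 CPM with Esr2 siRNA and 18.02, 18.04 and 18.1 CPM with scrambled siRNA at 30 h, the same order of groups as Btc. Egfr was nearest to Psd4 with 0.199, then to Colec12 and Uck1, against a median of 0.65. Ereg was nearest to Fat3 with 0.337, then to Col12a1 and the kinase gene Sgk1, against a median of 0.92. Areg was nearest to Gria4 with 0.302, then to Hs3st1 and Id2, against a median of 0.663. Id2, an inhibitor of helix-loop-helix factors, was at 96.1, 60.6 and 96.6 CPM after Esr2 siRNA and 47.2, 52.4 and 50.04 CPM with scrambled siRNA at 30 h, with replicate 2 the lowest Esr2 siRNA library as for Areg.

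Of the remaining ligand and receptor genes of the family, Nrg2, Erbb4 and Egf rose after Foxl2 siRNA. Of 6 listed genes (Egf, Epgn, Nrg2, Nrg3, Nrg4 and the neuregulin receptor gene Erbb4) 4 were tested; Nrg3 had no count in 14 libraries and 1 count in the other, and Nrg4 had 1 to 15 counts. The neuregulin gene Nrg2 rose at both times, to 5.92 ± 1.05 CPM after Foxl2 siRNA at 30 h, against 3.34 ± 0.376 CPM with scrambled siRNA, and to 7.98 ± 1.44 CPM after Foxl2 siRNA at 54 h, against 2.82 ± 0.543 CPM with scrambled siRNA (mean ± SD, n = 3 libraries; edgeR, adjusted p = 0.0165 and 0.000106). Erbb4 rose at 54 h to 49.9 ± 5.53 CPM after Foxl2 siRNA, against 27.1 ± 4.57 CPM with scrambled siRNA, and Egf to 29.4 ± 6.48 CPM after Foxl2 siRNA, against 16.2 ± 0.868 CPM with scrambled siRNA (mean ± SD, n = 3 libraries; edgeR, adjusted p = 0.00221 and 0.0152). Of the 4 tested genes, 1 was called higher at 30 h and 3 at 54 h, beside 6.34% and 18.5% of all tested genes. None of the 4 tested genes was called after Esr2 siRNA. The Nrg2 call at 30 h was lost when scrambled replicate 2 or 3, or replicate 1 of Foxl2 siRNA, was left out (edgeR, adjusted p 0.0572 to 0.0805), and the Egf call without scrambled replicate 2 or Foxl2 siRNA replicate 1 at 54 h (adjusted p 0.0525 and 0.0609).

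Among 11 sheddases of EGF-like ligands and their regulators, 2 were higher and 0 lower after Foxl2 siRNA at 30 h, 3 higher and 1 lower at 54 h, and 0 higher and 1 lower after Esr2 siRNA. In either direction 13%, 38.8% and 4.23% of all tested genes were called in these comparisons, so that the share of 4 of 11 at 54 h was near the background. Timp3, which encodes an inhibitor of ADAM17 and other metalloproteases, was 2.65-fold higher at 30 h and 4.67-fold higher at 54 h, when it stood at 1431 ± 424.5 CPM after Foxl2 siRNA, against 306 ± 83.7 CPM with scrambled siRNA (mean ± SD, n = 3; edgeR, adjusted p = 0.00637 and 8.67e-05). The sheddase gene Adam10 was 1.25-fold and 1.29-fold higher (edgeR, adjusted p = 0.0109 and 0.00126). Bace1, a protease gene whose product cleaves neuregulin 1, was 1.49-fold lower after Esr2 siRNA (edgeR, adjusted p = 0.0048). The median log2 change of the list was 0.0804, 0.0662 and -0.00356 in these comparisons.

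Of 21 adaptors and kinases from the receptor to ERK, 1 was higher and 1 lower after Foxl2 siRNA at 30 h, 2 higher and 6 lower at 54 h, and 0 higher and 1 lower after Esr2 siRNA. Beside 13%, 38.8% and 4.23% of all tested genes, 2 of 21 at 30 h was under the background share and 8 of 21 at 54 h and 1 of 21 after Esr2 siRNA were close to it. The docking protein gene Gab1 rose at both times and reached 93.5 ± 6.03 CPM after Foxl2 siRNA at 54 h, against 48.9 ± 1.69 CPM with scrambled siRNA (mean ± SD, n = 3; edgeR, adjusted p = 0.000108 at 30 h and 9.56e-07 at 54 h). Pik3r1, a regulatory subunit gene of phosphoinositide 3-kinase, fell at 54 h to 78.96 ± 26.2 CPM after Foxl2 siRNA, against 155 ± 11.5 CPM with scrambled siRNA (mean ± SD, n = 3; edgeR, adjusted p = 0.00166). Map2k1, which encodes the ERK kinase MEK1, was 1.45-fold lower after Esr2 siRNA (edgeR, adjusted p = 0.000871). The list's median was -0.145, -0.0944 and -0.0194.

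Of 19 negative regulators, 2 were higher and 1 lower after Foxl2 siRNA at 30 h, 4 higher and 2 lower at 54 h, and 0 in either direction after Esr2 siRNA. The count of 6 of 19 at 54 h is a smaller share than the 38.8% of all tested genes. The phosphatase gene Ptprj was 1.57-fold higher at 30 h and 2.21-fold higher at 54 h, and the ERK phosphatase genes Dusp4 and Dusp5 were 1.83-fold and 1.85-fold higher at 54 h (edgeR, adjusted p = 0.00105, 4.68e-06, 0.000213 and 0.000357). Of 14 growth factor response genes, 1 was higher and 1 lower at 30 h of Foxl2 siRNA, 1 higher and 2 lower at 54 h, and 0 after Esr2 siRNA. The count of 3 of 14 at 54 h was again a smaller share than the 38.8% of all tested genes. Fos fell at both times and stood at 4.14 ± 1.69 CPM after Foxl2 siRNA at 54 h, against 20.3 ± 2.72 CPM with scrambled siRNA, while Jun was 1.75-fold higher at that time (mean ± SD, n = 3; edgeR, adjusted p = 0.000624 and 0.000186). Both encode subunits of the AP-1 transcription factor. The 30 h calls of Fos, Jun, Dusp4 and the ERK pathway inhibitor gene Spred2 were each lost without any 1 scrambled library. Each was also lost without Foxl2 siRNA replicate 1. The Fos call was lost without Foxl2 siRNA replicate 3 too, and the other calls without replicate 2 (edgeR, adjusted p 0.0525 to 0.157 over these fits). Without the expression filter those of Dusp4 and Jun were lost as well (edgeR, adjusted p = 0.0523 and 0.0507). The Dusp4 call was also lost with a replicate block (edgeR, adjusted p = 0.0515), and the Jun call in a fit of the compared groups alone (adjusted p = 0.0613).

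Genes of ovulation and cumulus expansion, several of them known to respond to EGFR in the follicle, were counted as a list that was not tested as such. Like the other lists, it was chosen with earlier results of these data known, so no conclusion is drawn from its share of calls. Of 16 tested, 2 were higher and 6 lower at 30 h and 2 higher and 10 lower at 54 h, with medians of -0.483 and -0.589 on the log2 scale; after Esr2 siRNA 1 was higher and 0 lower, with a median of 0.0124. Over all tested genes 6.34% were higher and 6.65% lower at 30 h, 18.5% higher and 20.3% lower at 54 h, and 1.13% higher and 3.11% lower after Esr2 siRNA. The prostaglandin receptor gene Ptger2 was at 8.698 ± 2.28 CPM after Foxl2 siRNA at 54 h, against 68.8 ± 0.901 CPM with scrambled siRNA (mean ± SD, n = 3; edgeR, adjusted p = 4.18e-07). The transcription factor gene Cebpb was 1.91-fold lower at 30 h and the corepressor gene Nrip1 1.69-fold lower at 54 h (edgeR, adjusted p = 0.00177 and 3.97e-05). In the other direction Edn2, which encodes endothelin 2, was at 12.1 ± 6.91 CPM after Foxl2 siRNA at 54 h, against 0.6702 ± 0.215 CPM with scrambled siRNA (mean ± SD, n = 3; edgeR, adjusted p = 9.04e-05). Tnfaip6, a cumulus matrix gene, was 1.63-fold higher after Esr2 siRNA (edgeR, adjusted p = 0.0471), a call lost without any 1 scrambled library or Esr2 siRNA replicate 1 or 3 (adjusted p 0.0895 to 0.206). The Tnfaip6 call was also lost with a replicate block (edgeR, adjusted p = 0.0557).

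**Figure D4:**
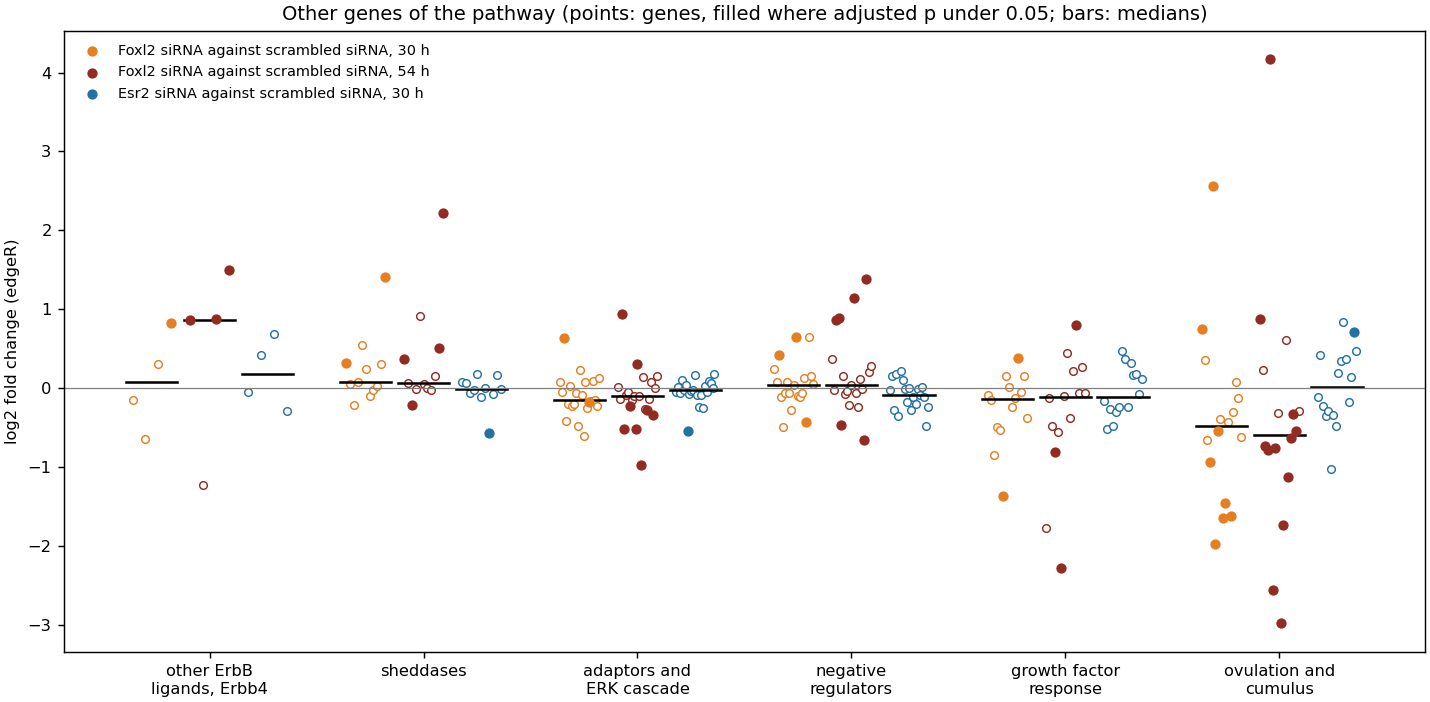
Log2 fold change (y axis) of the tested genes of 6 pathway lists (x axis) for each siRNA and time against its scrambled control; points are genes, filled where the edgeR adjusted p was under 0.05, and bars are medians. The ovulation and cumulus list has the most filled points below 0 after Foxl2 siRNA, and few genes of any list are filled after Esr2 siRNA.

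Some markers of other cell types moved with Foxl2 siRNA as well. The summed level of 9 surface epithelium markers was 456 to 473 CPM after Foxl2 siRNA at 30 h, against 343 to 386 CPM with scrambled siRNA, and 740 to 755 CPM after Foxl2 siRNA at 54 h, against 300.3 to 383 CPM with scrambled siRNA. Of these 9, 2 were called higher at 30 h and 6 at 54 h, with none lower, beside 6.34% and 18.5% of all tested genes called higher. None was called after Esr2 siRNA. The sum was led by the keratin genes Krt8 and Krt18, with means of 199 and 130 CPM with scrambled siRNA at 30 h. After Foxl2 siRNA at 30 h their means were 218 and 163 CPM. Krt7, Krt19 and Cdh1 were called at neither time, and the log2 changes of Cdh1 were -0.54 and -0.79. The sum of the 12 granulosa markers, which include Foxl2 and Esr2, was 2986 to 4308 CPM after Foxl2 siRNA at 30 h and 3247 to 3347 CPM after Esr2 siRNA, against 4463 to 4843 CPM with scrambled siRNA at 30 h. It was 2735 to 3917 CPM after Foxl2 siRNA at 54 h, against 5120 to 5204 CPM with scrambled siRNA. Of these 12, 1 was called higher and 5 lower after Foxl2 siRNA at 30 h, 1 higher and 7 lower at 54 h, and 0 higher and 1 lower, Esr2 itself, after Esr2 siRNA. Most of the lower sum after Foxl2 siRNA lay in the gap junction gene Gja1, at 337 ± 219.8 CPM after Foxl2 siRNA against 1288 ± 145 CPM with scrambled siRNA at 30 h, and at 191 ± 160 CPM after Foxl2 siRNA against 1657 ± 40.5 CPM with scrambled siRNA at 54 h (mean ± SD, n = 3; edgeR, adjusted p = 0.0239 and 0.000566). Amhr2, the receptor gene of anti-Müllerian hormone, was called higher at both times (edgeR, adjusted p = 0.0494 and 0.00192), and Inha was called at neither. Endothelial and oocyte marker sums stayed at or under 14.1 and 0.822 CPM in every library, with none of their tested markers called in these comparisons. The sum of 6 leukocyte markers was 3.69 to 6.70 CPM after Foxl2 siRNA against 3.29 to 3.86 CPM with scrambled siRNA at 30 h, and 4.28 to 5.37 CPM after Foxl2 siRNA against 2.98 to 3.29 CPM with scrambled siRNA at 54 h. The macrophage receptor gene Csf1r was higher at both times, 2.37-fold and 2.98-fold (edgeR, adjusted p = 0.0224 and 0.00232), and Cd68 was not called. The 6 smooth muscle and pericyte markers summed to 710.3 to 1409 CPM after Foxl2 siRNA at 30 h, 723.8 to 1321 CPM after Esr2 siRNA and 959 to 1580 CPM with scrambled siRNA at 30 h, and to 807.5 to 1675 CPM after Foxl2 siRNA against 502 to 1357 CPM with scrambled siRNA at 54 h, with overlapping groups and none called. The part of these markers' cells in the changes of the 10 genes was not tested.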

How the data were processed

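RNA was sequenced from 15 libraries of primary mouse granulosa cells with a stranded poly(A) kit from 1.3 µg of RNA and single 75-base reads, per the labels' protocols. The values the authors deposited are raw read counts for 24582 features. Per the submitters' processing notes the tools were bcl2fastq 2.15.0, DESeq2 and TopHat2 on mm10; which program counted reads, with which annotation and strand option, is not given in the sources used here. Unknown strand handling limits genes that overlap on opposite strands. The 92 spike-in rows, 0.105% to 0.352% of counts, entered neither library sizes nor tests, and 15 gene symbols turned into dates in 1 library were restored by row order.

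All 15 libraries entered 1 edgeR 4.0.16 quasi-likelihood fit of 5 group means in R 4.3.3, with TMM scaling, edgeR's expression filter (14907 genes), 10 residual degrees of freedom and Benjamini-Hochberg adjustment over all tested genes, two-sided, called under 0.05. The standard error was derived from the F statistic. The biological coefficient of variation was 0.148. Exon lengths and positions come from GENCODE M21 and promoters from RefSeq. Replicates differed by more than sampling noise, with chi-square per degree of freedom of 6.85 to 122, so none was a copy. The labels number replicates 1 to 3 in every group without saying what a number shares. Deviations from the group mean correlated over 0.1 for each same-number pair only between the scrambled times. Between Foxl2 siRNA and scrambled siRNA the correlations of numbers 1 to 3 were 0.494, 0.439 and 0.0662 at 30 h and 0.397, 0.0154 and 0.136 at 54 h. Unlike numbers there reached 0.197 and 0.39. The main fit modelled no pairing, and with a replicate block 3 and 6 of the 10 genes were again called. Alternatives were other scalings, DESeq2 1.42.0, limma 3.58.1 voom with quality weights, no filter, a replicate block, fits of the compared groups alone, each library left out, and, chosen after seeing the data, both Foxl2 siRNA libraries with the most Foxl2 left out. The fit was also run on simulated counts with planted changes. Those counts held no differences shared by many genes among libraries of a group, so nothing about the calls here is concluded from them. A permutation of 3 against 3 libraries cannot go below p = 0.10.

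The members and the lists were chosen with earlier results of these data known. Named pathway genes are at most 3 called genes per list and comparison, those with the smallest adjusted p, and for profiles the 3 nearest genes; 1 gene that the rule names is not reported here. Foxl2 and Esr2 were looked at in every library.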

Additional observations from a re-analysis of the deposited data

How the results depend on the processing

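No change of the 10 genes that had been called reversed under any alternative run, and Btc and Egfr after Foxl2 siRNA at both times, Tgfa after Foxl2 siRNA at 54 h and after Esr2 siRNA, and Nrg1 after Foxl2 siRNA at 54 h kept their calls under all of them. The number of the 10 genes called differed from that reported as follows, and the cause was not tested. Voom with quality weights called 5 after Foxl2 siRNA at 30 h (adding Ereg and Hbegf), 6 after Esr2 siRNA (adding Btc, Nrg1, Egfr and Erbb2), 2 between scrambled times, 1 for the difference of Foxl2 siRNA changes and 7 between the siRNAs, where DESeq2 and library size alone called 6. After Esr2 siRNA, 1 gene was called without the expression filter, 3 in a fit of the compared groups alone and 1 to 2 with each library left out. The fit of the compared groups alone called 5 genes after Foxl2 siRNA at 54 h, 1 between scrambled times (Egfr) and 3 between Foxl2 siRNA and Esr2 siRNA. Leaving out each library gave 2 to 3 genes after Foxl2 siRNA at 30 h, 4 to 7 at 54 h, 3 to 6 between the siRNAs, and 0 in both time comparisons. Without both Foxl2 siRNA libraries with the most Foxl2 the counts were 3, 5, 0 and 6 for Foxl2 siRNA at 30 h, at 54 h, the difference of changes and Foxl2 siRNA against Esr2 siRNA. Replicates with the same number did not deviate together in all groups, with correlations of -0.494 to 0.659. Every same-number pair was over 0.1 (0.143 to 0.632) only between the scrambled times. Unlike numbers reached 0.336 there, for replicate 3 at 30 h with replicate 2 at 54 h. The numbers were used only in the replicate block, which was run for every comparison. That block called no gene of the 10 between the scrambled times and 1 gene after Esr2 siRNA, where Areg had an edgeR adjusted p of 0.0545. Between the siRNAs it called 6, adding Egfr. Over all genes, Foxl2 siRNA at 30 h called 5252 genes by voom, 898 to 3016 with a library left out and 4577 without both libraries with the most Foxl2. Esr2 siRNA called 1098 by DESeq2, 4731 by voom, 1131 with the compared groups alone and 238 to 1030 with a library left out. Between scrambled times 0 were called with RLE scaling, without the filter or with a library left out, 3 with the block and 206 with the compared groups alone. The difference of Foxl2 siRNA changes was called for up to 904 genes with a library left out, the most without Foxl2 siRNA replicate 2 at 54 h, and for 836 without both. Foxl2 siRNA against Esr2 siRNA called 5446 by voom, 1625 with those groups alone, as few as 1767 with a library left out and 5133 without both. Scaling moved the split of calls: 1204 higher and 799 lower by upper quartile for Foxl2 siRNA at 30 h, 2315 and 3758 by library size alone at 54 h, 248 and 391 by library size alone and 250 and 396 by upper quartile for Esr2 siRNA, and 1362 and 1989 by library size alone between the siRNAs. Depth limits Areg and Epgn, whose counts per library were low.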
